A study of Mus musculus with 8 samples.

Results

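Genes of the proteasome were followed in livers of mice with and without Keap1. Members were taken by symbol, as every mouse gene named Psma, Psmb, Psmc, Psmd, Psme, Psmf or Psmg with a number whose RefSeq accession was found on the array. This gave 50 of 19751 named genes, on 61 of 39429 probes. Of these, 49 were among the 15834 genes tested, and the other, Psmb11, the thymus-specific catalytic subunit, was not well above background on any of the 8 arrays. Psma8, the alpha subunit of testis proteasomes, was above background on 2 arrays, and the other 48 members were above it on all 8. The symbol also brought in Psmc3ip, a partner in meiotic recombination, and Psme3ip1, a protein that binds the activator Psme3. Neither is a part of the particle.

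RNA of whole liver from 8 mice, 1 array each, was measured on 1-colour Agilent arrays. AKP mice (2 males, 2 females) express an activated oncogene together with p53 R172H, a mutant form, specifically in the liver. AKP::Keap1 mice (2 males, 2 females) have both alleles and a deletion of Keap1 besides. The promoter that restricts the alleles to the liver, the age of the mice and the tumour content of each sample are not given in the sources used here. The comparisons ask how these genes differ with Keap1 loss, which activates the transcription factor Nrf2, and whether that difference is the same in both sexes.

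The proteasome is the barrel-shaped protease that destroys ubiquitin-tagged proteins. Its 20S core is built of outer alpha rings and inner beta rings, and some of the beta subunits cut peptides. Caps open the core: the 19S regulatory particle, with ATPases that unfold substrates and non-ATPase subunits that bind and strip ubiquitin, or the ubiquitin-independent activators PA28 and PA200. Nrf2 and its relative Nfe2l1 are both known to raise proteasome genes, through antioxidant response elements in their promoters. Interferon gamma exchanges the catalytic subunits for the immunoproteasome versions, which favour peptides for MHC class I.

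Levels are given as log2 signal relative to each array's 75th percentile, differences are log2 differences with the SE of the limma fit, and a gene was called at an adjusted p below 0.05. Between 65.7% and 70.7% of spots per array were well above background, and none was saturated. Pearson's r between the mice of a group was 0.9895 to 0.9919 over genes, which are no replicates. Keap1 itself was lower in all 4 AKP::Keap1 mice (-1.40 to -0.52) than in the 4 AKP mice (1.68 to 2.14). Mean levels of 10 hepatocyte markers lay between 6.36 and 7.26 on every array. The 4 groups lay on 4 separate slides, and the sexes were scanned on 2 separate days, so that slide and group, and scan day and sex, cannot be told apart. In whole tissue, fewer cells of a type and less RNA per cell cannot be told apart either. Nothing says whether the mice of a group were littermates, and with 2 mice per group the p-values measure only the spread between these samples.

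With Keap1 loss few proteasome genes were called over both sexes. Of the 49 differences, 43 were negative in males and 33 were positive in females. In males 6 were positive, but 25 after quantile normalization and 40 with unscaled values. Over both sexes 19 were positive, but 3 after a shift to the array median and 43 with unscaled values. Averaged over the sexes, 2 of 49 members rose in AKP::Keap1 livers, Psmb5 and Psmc3ip, and 5 fell, Psma6, Psmb7, Psmd6, Psmd9 and Psme4, while 42 were not called. Among all genes tested 21.8% were called higher and 17.2% lower, so that 4.08% of the members were called higher and 10.2% lower, both below the background. Without overlap between the 4 AKP::Keap1 and the 4 AKP mice, 3 of 49 members were higher, beside 15.5% of all genes, and 6 lower, beside 11.5%. The median difference was -0.05, against -0.001 over all genes. The quartiles of the members were -0.18 and 0.02, and none reached a 2-fold change, which 13.1% of all genes did. Without Psmc3ip, Psme3ip1 and Psma8, which are outside the particle or barely measured, 1 of 46 members rose and 5 fell. For comparison, 9 of 11 classical Nrf2 target genes rose, with a median of 1.55.

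**Figure D1:**
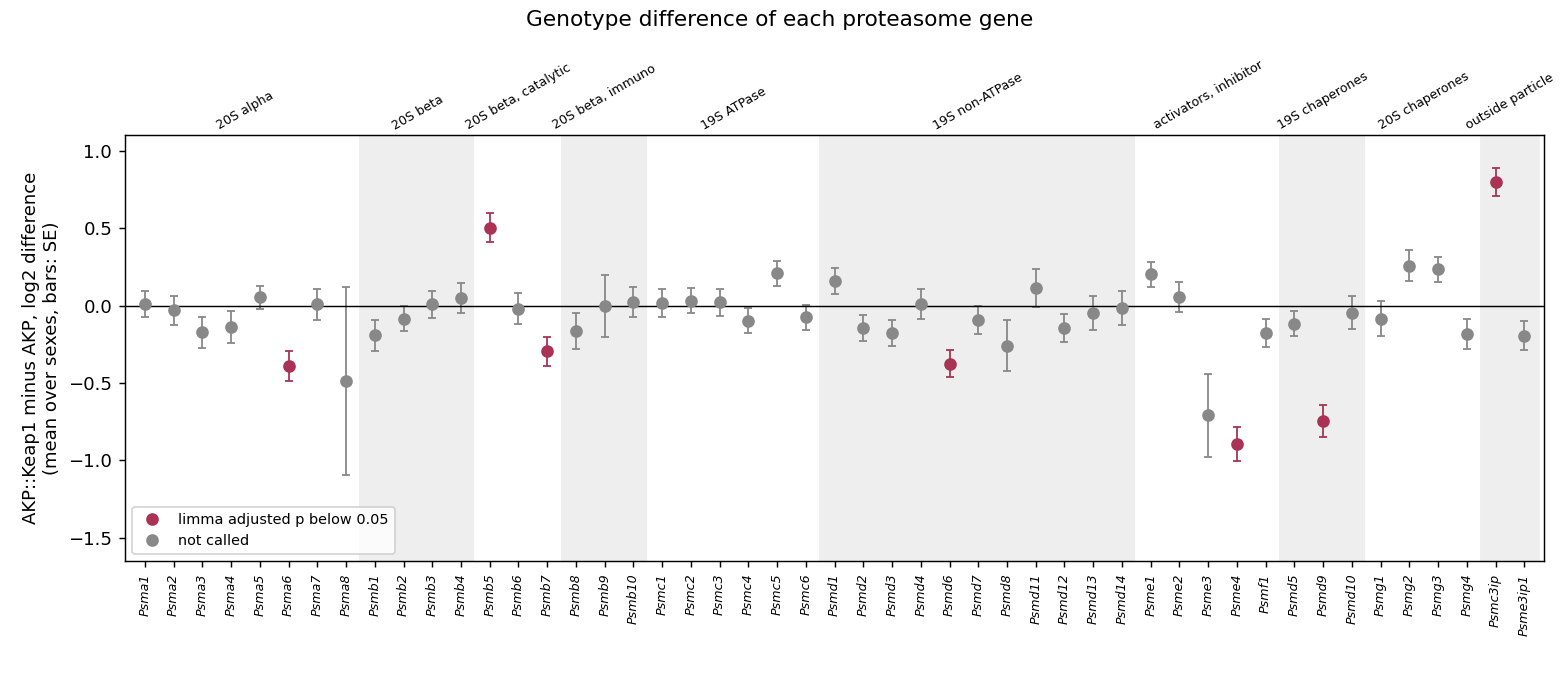
Genotype difference (AKP::Keap1 minus AKP, mean over both sexes, log2; bars are the SE of the limma fit, 2 mice per group) of the 49 members tested, ordered by role. Psmb5 (0.50) and Psmc3ip (0.80) lie above 0 as called genes, Psma6, Psmb7, Psmd6, Psmd9 and Psme4 lie below it, and most of the others sit within 0.20 of 0.

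Of the 3 constitutive catalytic subunits 1 rose, 1 fell and 1 was not called. Psmb5, which carries the chymotrypsin-like activity and is the target of bortezomib, had 6.29 and 6.21 in the AKP males, levels of 6.32 and 6.47 in the AKP::Keap1 males, 5.78 and 5.75 in the AKP females and 6.74 and 6.51 in the AKP::Keap1 females. Every AKP::Keap1 mouse was above every AKP mouse, and the AKP females were the lowest pair. The difference was 0.50 ± 0.09, a 1.42-fold rise (limma, adjusted p = 0.0087). It was 0.86 ± 0.13 in females (adjusted p = 0.010) and 0.15 ± 0.13 in males, where it was not called (adjusted p = 0.43). The difference between the sexes was not called either (0.71 ± 0.19, adjusted p = 0.10). A second Psmb5 probe gave 0.59 ± 0.10 (adjusted p = 0.0053). The call ended with the slide as a random block (adjusted p = 0.085), in a model with terms for genotype and sex and no interaction. The female call ended without AKP female 2 (0.85) and in the 4 female arrays alone (adjusted p = 0.052).

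Psmb7, the trypsin-like subunit, fell. It had 2.81 and 2.54 in the AKP males, levels of 2.17 and 2.12 in the AKP::Keap1 males, 2.51 and 2.44 in the AKP females and 2.46 and 2.38 in the AKP::Keap1 females. The male groups did not overlap, whereas the female groups did. Its mean fall over the sexes, -0.30 ± 0.09 (adjusted p = 0.048), came with -0.53 ± 0.13 in males (adjusted p = 0.032) and -0.06 ± 0.13 in females. The call held after leaving out AKP male 2 (-0.36) and ended after leaving out any of the other 7 arrays, where values ran from -0.32 to -0.23. It also ended after quantile normalization (-0.22, adjusted p = 0.083), normexp correction (adjusted p = 0.065), with no filter on dim probes (adjusted p = 0.064), with a replicate block (adjusted p = 0.052) and with the slide as a random block (adjusted p = 0.20). With unscaled values the difference was 0.01. Psmb6, the caspase-like subunit, had -0.02 ± 0.10 (adjusted p = 0.88), with its highest value in an AKP male (6.35) and its lowest in an AKP female (5.80).

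Because Nrf2 and Nfe2l1 bind the antioxidant response element, the 250 bases before each start site were searched for its core, TGACNNNGC, on both strands, in the RefSeq promoters of build GRCm38.p6, which held 42 of the 50 members. Matches were found in 5 members: Psmb5, Psmb6, Psmc6, Psmd9 and Psmd12. That is 11.9% of these members, beside 10.2% of all 32851 promoters. Of the 5, Psmb5 rose, Psmd9 fell and the other 3 were not called by genotype. The upstream sequences of the catalytic pair Psmb5 and Psmb6 and of the strongest falls, Psmd9 and Psme4, are shown 5′ to 3′ in the direction of the gene, with the match in capitals.
Psmb5 (chr14:54617996-54618245, minus strand): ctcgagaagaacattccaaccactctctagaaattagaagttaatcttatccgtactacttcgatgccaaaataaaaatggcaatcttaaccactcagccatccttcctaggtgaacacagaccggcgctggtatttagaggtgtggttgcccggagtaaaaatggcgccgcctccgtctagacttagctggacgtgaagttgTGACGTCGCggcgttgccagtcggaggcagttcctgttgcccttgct
Psmb6 (chr11:70525107-70525356, plus strand): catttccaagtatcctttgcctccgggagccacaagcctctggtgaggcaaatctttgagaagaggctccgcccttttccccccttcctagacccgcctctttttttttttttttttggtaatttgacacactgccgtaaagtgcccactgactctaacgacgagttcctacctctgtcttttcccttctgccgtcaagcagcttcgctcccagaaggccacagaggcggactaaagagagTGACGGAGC
Psmd9 (chr5:123227940-123228189, plus strand): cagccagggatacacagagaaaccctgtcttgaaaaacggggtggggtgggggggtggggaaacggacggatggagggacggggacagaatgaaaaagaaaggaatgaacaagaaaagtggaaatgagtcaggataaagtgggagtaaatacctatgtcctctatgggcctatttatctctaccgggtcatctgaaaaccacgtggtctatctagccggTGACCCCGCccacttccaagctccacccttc
Psme4 (chr11:30771525-30771774, plus strand): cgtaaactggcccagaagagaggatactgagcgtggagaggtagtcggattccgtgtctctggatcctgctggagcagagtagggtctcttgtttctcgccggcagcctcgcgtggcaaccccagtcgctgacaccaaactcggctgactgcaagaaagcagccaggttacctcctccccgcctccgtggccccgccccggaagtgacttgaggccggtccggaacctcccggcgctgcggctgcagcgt
Read from the start site, the match begins 47 bases before it in Psmb5, 9 in Psmb6 and 31 in Psmd9, and Psme4 has no match in this window. These letters are a description and not a binding site. A core of ETS sites, CCGGAAG, searched the same way, was in 13 of the 42 members (31.0%) and in 6.91% of all promoters. Of the 13, Psma6, Psmd6 and Psme4 fell by genotype, Psmc3ip rose and the others were not called by genotype. Psmd9, which fell, and Psmb5, which rose, had no such match. Motifs for CCAAT boxes (CCAAT, 16 members, 38.1% beside 33.8%), gamma-activated sites (TTCNNNGAA, 2 members, 4.76% beside 7.02%) and interferon-stimulated response elements (GAAANNGAA, 3 members, 7.14% beside 7.13%) were also searched. The gamma-activated match includes Psmb8, 97 bases before its start. For every motif the members were counted by gene, with a match in any of the gene's promoters (42 genes, 46 promoters). The share of all was counted by promoter (32851 promoters of 27025 genes), so that the units differ. None of these shares was tested, and the members' windows were richer in G and C (median 57.6%) than all windows (52.4%).

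The immunoproteasome subunits Psmb8, Psmb9 and Psmb10 were not called in any comparison. Psmb8 had 2.71 and 2.71 in the AKP males, levels of 2.03 and 2.35 in the AKP::Keap1 males, 2.76 and 2.51 in the AKP females and 2.91 and 2.74 in the AKP::Keap1 females. Psmb9 was at 2.64, 2.60, 2.18 and 2.35 in the males in the same order, and at 2.96, 2.10, 3.02 and 2.74 in the females. Psmb10 was at 4.51, 4.42, 3.99 and 4.23 in males and at 4.46, 4.28, 4.78 and 4.75 in females. For all 3 the AKP::Keap1 males were the lowest or near the lowest, and the female values overlapped between genotypes for Psmb8 and Psmb9 but not for Psmb10. Averaged over the sexes the differences were -0.17 ± 0.11, 0.00 ± 0.20 and 0.02 ± 0.10, with adjusted p from 0.29 to 0.999. In males they were -0.52 ± 0.16 (adjusted p = 0.056), -0.35 ± 0.28 and -0.35 ± 0.14, and in females 0.19 ± 0.16, 0.35 ± 0.28 and 0.39 ± 0.14 (adjusted p = 0.089 for Psmb10). Leukocyte markers, which come from the cells richest in immunoproteasome, had mean levels of -0.76 to -0.54 in the AKP males, below -0.12 to 0.13 in the AKP::Keap1 males. In females they were at 0.31 to 0.52 and 0.58 to 0.78. Of the 9 markers, 3 were called higher by genotype in males, 2 higher and 1 lower in females, and 6 higher over both sexes. Their part in the immunoproteasome values was not tested.

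**Figure D2:**
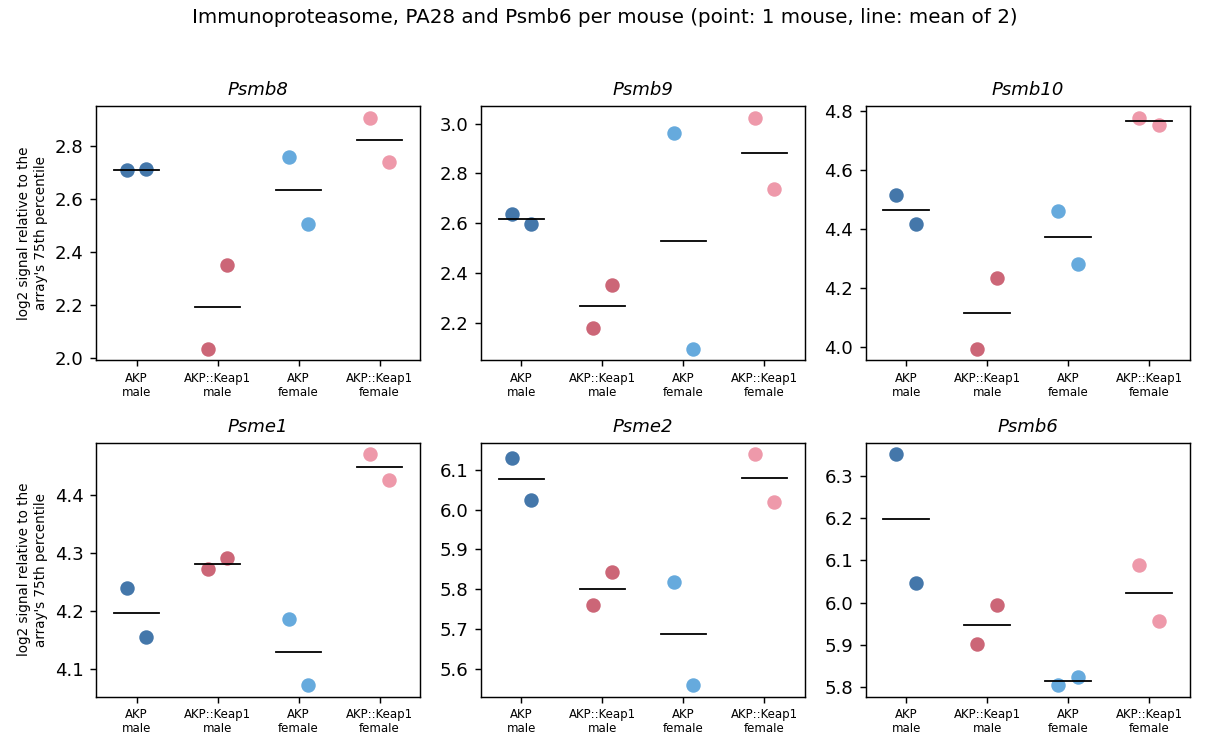
Log2 signal relative to the array's 75th percentile in each mouse (points; lines are means of 2 mice) for the immunoproteasome subunits Psmb8, Psmb9 and Psmb10, the PA28 subunits Psme1 and Psme2, and the constitutive subunit Psmb6. AKP::Keap1 males sit below AKP males for every gene shown except Psme1, and 1 AKP female stands low for Psmb9 (2.10).

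In the rest of the 20S core 1 gene was called. Among the 8 alpha subunits 1 fell, Psma6, with a median difference of -0.08. Psma6 had 3.62 and 3.88 in the AKP males, levels of 3.15 and 3.0 in the AKP::Keap1 males, 3.82 and 3.73 in the AKP females and 3.63 and 3.71 in the AKP::Keap1 females. The AKP::Keap1 males stood below the other 6 mice. The difference was -0.39 ± 0.10 (adjusted p = 0.024), with -0.67 ± 0.14 in males (adjusted p = 0.020) and -0.10 ± 0.14 in females. Leaving out the first male of either genotype kept the genotype call, and leaving out any of the other 6 arrays ended it (-0.41 to -0.32). It also ended after quantile normalization (-0.32, adjusted p = 0.071), with unscaled values (-0.08, adjusted p = 0.71) and with the slide as a random block (adjusted p = 0.13). Psma5 had the highest value among the alpha subunits above background on all arrays, 0.05 ± 0.08. Psma4 was not called with its brighter probe (-0.14 ± 0.10), while its other probe was (-0.39 ± 0.10, adjusted p = 0.025). Psma8 had -0.49 ± 0.61 from signals that were mostly not well above background, and gives no usable fold. None of the 4 structural beta subunits was called: they ranged from -0.19 ± 0.10 for Psmb1 to 0.05 ± 0.10 for Psmb4.

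In the 19S base none of the 6 ATPases was called by genotype over both sexes, with values from -0.10 ± 0.08 for Psmc4 to 0.21 ± 0.08 for Psmc5 (adjusted p = 0.081). These ATPases form the ring that unfolds substrates. For Psmc1, Psmc2 and Psmc3 the direction rests on the probe: the probes used gave 0.01, 0.03 and 0.02, and the other probes gave -0.10, -0.04 and -0.10. Of the 11 non-ATPase subunits 1 fell. Psmd6, a lid subunit, had 3.46 and 3.27 in the AKP males, levels of 2.83 and 2.84 in the AKP::Keap1 males, 3.05 and 3.08 in the AKP females and 2.91 and 2.77 in the AKP::Keap1 females. All 4 AKP::Keap1 mice were below all 4 AKP mice, by a difference of -0.38 ± 0.09 (adjusted p = 0.018). Leaving out AKP male 1, AKP female 2, AKP::Keap1 female 2 or either of the AKP::Keap1 males put the adjusted p between 0.052 and 0.058. The call also ended with unscaled values (-0.07, adjusted p = 0.62) and with the slide as a random block (adjusted p = 0.075). Psmd1, a scaffold of the base, had the highest value of the group, 0.16 ± 0.08. The ubiquitin receptor Psmd4 (0.01 ± 0.10), the scaffold Psmd2 (-0.15 ± 0.08) and the deubiquitinase Psmd14 (-0.02 ± 0.11) were not called.

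Psme4, or PA200, which caps the core and opens it without ATP, had the lowest genotype difference of the members. Its levels were 0.13 and 0.22 in the AKP males, levels of -0.42 and -0.64 in the AKP::Keap1 males, 0.90 and 0.96 in the AKP females and 0.00 and -0.31 in the AKP::Keap1 females. All AKP::Keap1 mice were below all AKP mice. Psme4 fell by 0.89 ± 0.11, or 1.86-fold (adjusted p = 0.0026), with -0.71 ± 0.15 in males (adjusted p = 0.022) and -1.08 ± 0.15 in females (adjusted p = 0.0087). A dimmer probe gave -0.94 ± 0.13 (adjusted p = 0.0035). It had -1.11 ± 0.19 in males (adjusted p = 0.012) and -0.77 ± 0.19 in females (adjusted p = 0.032). Which sex had the larger fall therefore depended on the probe. With the probe used, females were above males within each genotype, but the dimmer probe did not have this order in AKP mice (-2.41 and -2.67 in males, -2.59 and -2.51 in females). The genotype call held in all 10 other settings tried and without each array, with adjusted p from 0.00092 to 0.013. Its female call ended without AKP female 2 (-1.05, adjusted p = 0.053). Its male call ended without each of the 4 males (-0.81 to -0.60, adjusted p from 0.058 to 0.11) and with unscaled values (-0.20, adjusted p = 0.40).

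Psmd9 (p27), a chaperone that helps assemble the ATPase ring and leaves the finished particle, fell as well. It had 1.65 and 1.42 in the AKP males, levels of 0.51 and 0.65 in the AKP::Keap1 males, 1.0 and 1.08 in the AKP females and 0.61 and 0.39 in the AKP::Keap1 females. The genotypes did not overlap in either sex, and with the probe used AKP males were the highest group. The fall was -0.75 ± 0.10, or 1.68-fold (adjusted p = 0.0035), with -0.96 ± 0.14 in males (adjusted p = 0.0088) and -0.54 ± 0.14 in females (adjusted p = 0.046). The genotype call held in all 10 other settings and without each array. The other probe gave -1.02 ± 0.09 (adjusted p = 0.0011). It had -0.87 ± 0.12 in males (adjusted p = 0.0078) and -1.16 ± 0.12 in females (adjusted p = 0.0033). Its AKP males (0.16 and 0.30) did not stand apart from its AKP females (0.18 and 0.22). Which sex had the larger fall of Psmd9 therefore depended on the probe. With the probe used, the female call ended without any 1 of the 8 arrays (-0.65 to -0.43). The other chaperones of the 19S base were not called: Psmd5 had -0.12 ± 0.08 and Psmd10 (gankyrin) -0.05 ± 0.10. A dimmer Psmd10 probe was called in the opposite direction (0.41 ± 0.09, adjusted p = 0.015), so that this gene has no settled direction.

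Among the remaining activators, the PA28 subunits Psme1 and Psme2, which interferon gamma induces, had 0.20 ± 0.08 (adjusted p = 0.087) and 0.06 ± 0.10. Psme1 was the third member of the set with every AKP::Keap1 mouse (4.27 to 4.47) above every AKP mouse (4.07 to 4.24). Psme2 has a near-identical copy, Psme2b, whose RNA its probes may also bind. Psme3, the nuclear PA28 gamma, had 5.39 and 5.41 in the AKP males, levels of 4.03 and 4.65 in the AKP::Keap1 males, 4.06 and 4.45 in the AKP females and 4.42 and 3.36 in the AKP::Keap1 females. The AKP males stood above the other 6 mice, and the AKP::Keap1 females were far apart. Its difference of -0.71 ± 0.27 was not called (adjusted p = 0.080), but it was after a shift to the array median (-0.96, adjusted p = 0.024), after normexp correction (-0.71, adjusted p = 0.046) and without AKP::Keap1 female 1 (-0.97, adjusted p = 0.019). Psmf1, the inhibitor PI31, had -0.18 ± 0.09. The 4 chaperones of the 20S core were not called over both sexes, from -0.18 ± 0.10 for Psmg4 to 0.26 ± 0.10 for Psmg2. Psmg1 had -0.09 ± 0.11 with the probe used and 0.03 with its other probe.

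Outside the particle, Psmc3ip had -4.58 and -4.50 in the AKP males, levels of -4.00 and -3.94 in the AKP::Keap1 males, -4.62 and -4.43 in the AKP females and -3.44 and -3.56 in the AKP::Keap1 females. Every AKP::Keap1 mouse was above every AKP mouse. The rise was 0.80 ± 0.09, or 1.74-fold (adjusted p = 0.0021), and under normexp correction it was 0.21 (adjusted p = 0.13). Cell cycle markers rose in the same livers, 7 of 7, with a median of 1.74. Their part in this rise was not tested. Psme3ip1 had -0.19 ± 0.09.

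**Figure D3:**
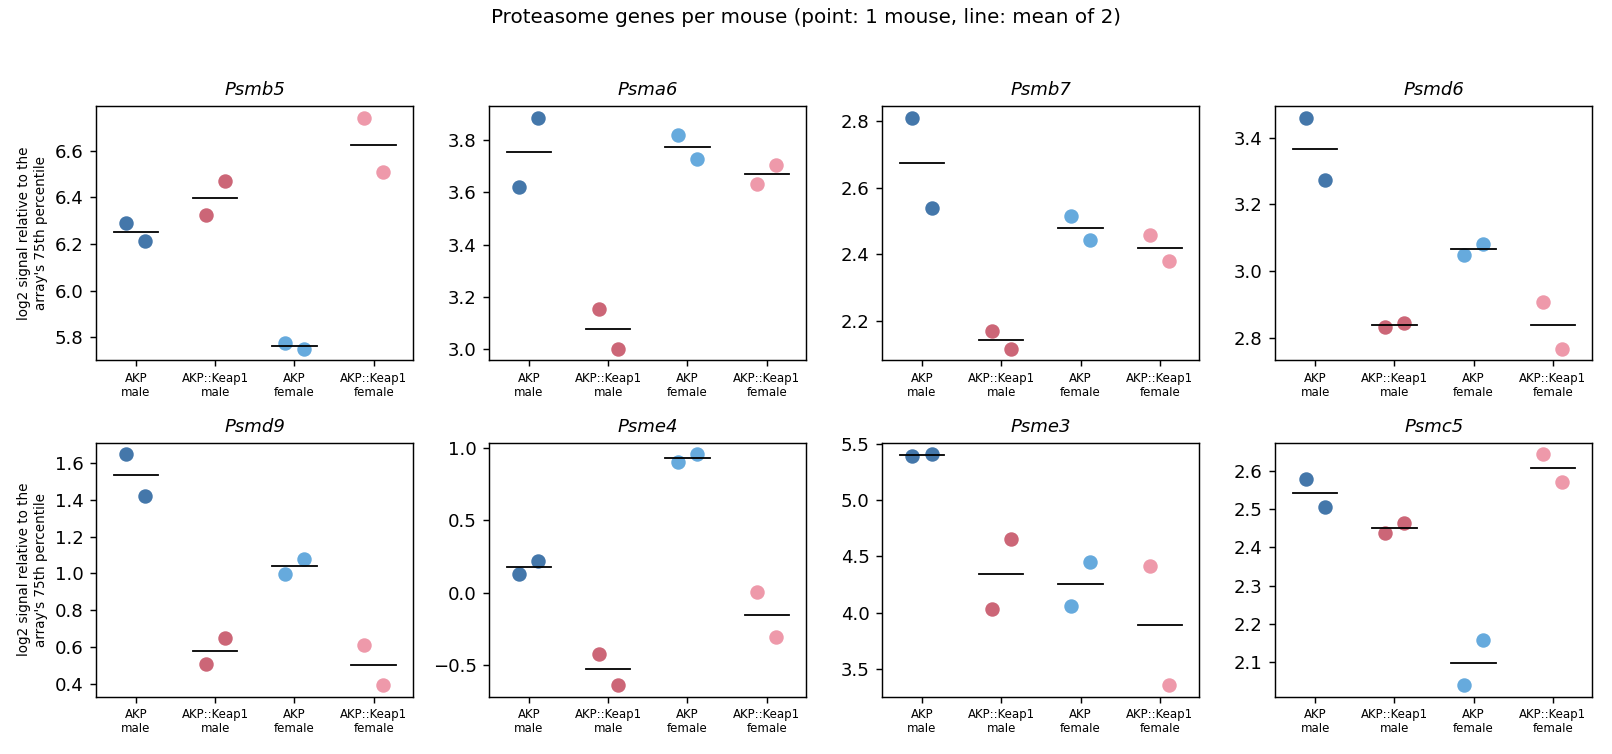
Log2 signal relative to the array's 75th percentile in each mouse (points; lines are means of 2 mice) for Psmb5, Psma6, Psmb7, Psmd6, Psmd9, Psme4, Psme3 and Psmc5; the vertical scale differs between genes. Psmd9 and Psme4 are lower in both AKP::Keap1 groups, Psmb5 is highest in AKP::Keap1 females (6.51 and 6.74), and Psma6 and Psmb7 are low in AKP::Keap1 males.

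Genotypes were then compared within each sex. In males 1 of 49 members rose (Psmc3ip) and 7 fell: Psma6, Psmb7, Psmc4, Psmd6, Psmd9, Psme4 and Psmg4. Of all genes 16.7% were called higher and 11.5% lower in males, beside 2.04% and 14.3% of the members. The median member difference was -0.25 and 43 of 49 were negative. In 39 of 49 members both AKP::Keap1 males were below both AKP males, beside 38.2% of all genes. In 4 of 49 they were above, beside 34.8% of all genes. Psmg4, a core chaperone, fell by 0.58 ± 0.14 (adjusted p = 0.029; 1.24 and 1.02 in AKP against 0.45 and 0.66), and the ATPase Psmc4 by 0.47 ± 0.11 (adjusted p = 0.031; 3.17 and 3.04 against 2.60 and 2.68). Both differences were positive in females, 0.21 ± 0.14 and 0.27 ± 0.11, and were not called there. Psmc4 in males had 0.04 with unscaled values. When one male at a time was left out, the fall of Psmd9 kept its call each time. Psma6 kept it without AKP male 1 and lost it without each of the other 3 males. The other 5 falls and the rise of Psmc3ip lost their calls without each of the 4 males.

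In females 4 of 49 members rose, Psmb5, Psmc3ip, Psmc5 and Psmg3, and 2 fell, Psmd9 and Psme4. Here 12.3% of all genes were called higher and 9.1% lower, beside 8.16% and 4.08% of the members. The median member difference was 0.18, and 33 of 49 were positive. In 25 of 49 members both AKP::Keap1 females were above both AKP females, beside 36.5% of all genes. In 8 of 49 they were below, beside 28.5% of all genes. Psmg3, another core chaperone, was at 1.65 and 1.66 in AKP females and 2.29 and 2.19 in AKP::Keap1 females, a rise of 0.59 ± 0.12 (adjusted p = 0.020). The ATPase Psmc5 was at 2.04 and 2.16 against 2.64 and 2.57, a rise of 0.51 ± 0.11 (adjusted p = 0.027). In males, Psmg3 (-0.12 ± 0.12) and Psmc5 (-0.09 ± 0.11) were not called. Psmg3, Psmc5 and Psmd9 lost their calls without each of the 4 female arrays, and Psmb5 and Psme4 lost theirs without AKP female 2. Psmc3ip kept its call without each array.

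**Figure D4:**
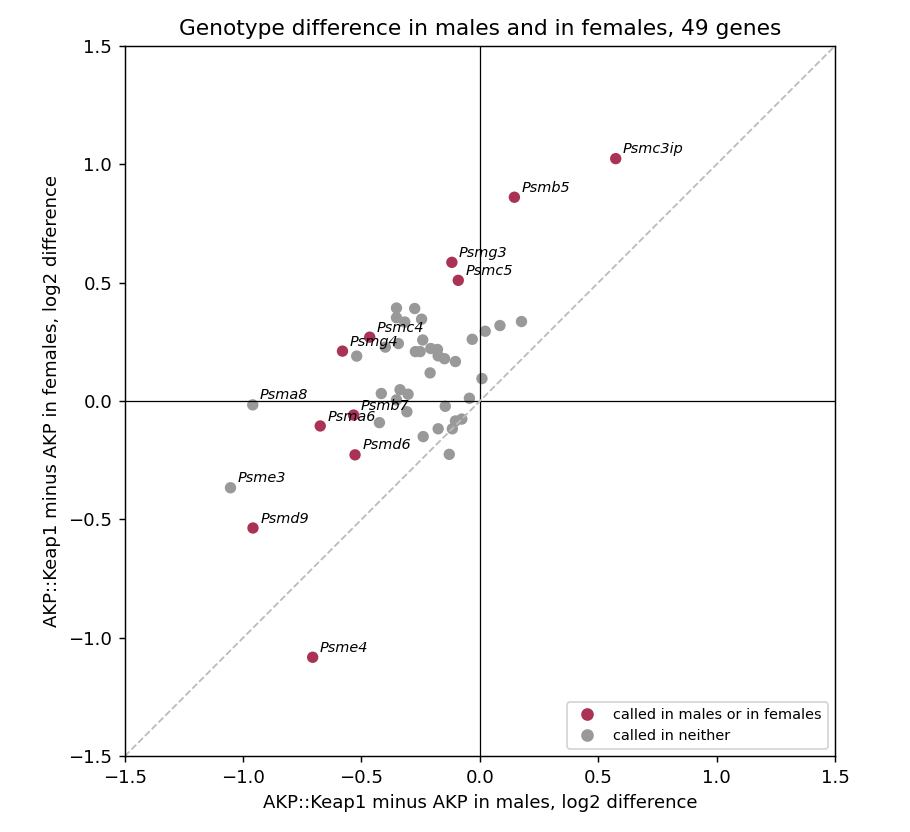
Log2 genotype difference in males (horizontal) against that in females (vertical) for the 49 members; the dashed line marks equal differences and coloured points were called in either sex. Of the 49 genes, 46 lie above the dashed line, and Psme4 (-0.71 in males, -1.08 in females) lies below it. The dimmer Psme4 probe, which is not plotted, had the opposite order (-1.11 in males, -0.77 in females).

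The interaction of genotype and sex, female minus male, tests gene by gene whether the genotype difference was the same in both sexes. No member was called by limma in either direction, where 0.411% of all genes were called higher and 1.31% lower. At an unadjusted p below 0.05, 17 members were higher and 0 lower, and a model with trend and robust variance called 2 higher. The interaction was positive for 46 of 49 members, with a median of 0.40 against 0.01 over all genes. In 18 of 49 members the arrays split the opposite way in the 2 sexes, beside 7.05% of all genes. These had both AKP::Keap1 males below both AKP males and both AKP::Keap1 females above both AKP females. None had the reverse, beside 3.03% of all genes. The 18 members include the alpha subunits Psma1, Psma2 and Psma7, the beta subunits Psmb3, Psmb4, Psmb6 and Psmb10, and the ATPases Psmc1 to Psmc5. The largest interactions of members above background on all arrays were those of Psmg4 (0.79 ± 0.20), Psmb10 (0.74 ± 0.19) and Psmc4 (0.74 ± 0.16), the last with adjusted p = 0.078.

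Genes with bright probes had mostly positive interactions too. Among the 1583 genes with the brightest probes, which hold 24 of the 49 members, the median interaction was 0.38 and 83.4% were positive. Their median genotype differences were -0.35 in males and 0.02 in females, beside -0.25 and 0.18 for the members. After quantile normalization, which gives every array the same distribution, the members' median interaction was 0.06 and that of the bright genes -0.002. The opposed pattern was then left in 3 members, beside 5.3% of all genes. With unscaled values the members' median was 0.005. The size of the interaction therefore depended on the scaling. So did the calls over both sexes: quantile normalization gave 7 members higher and 3 lower (median of all genes -0.015), a shift to the array median 2 higher and 25 lower (-0.25), and unscaled values 12 higher and 2 lower (0.31).

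**Figure D5:**
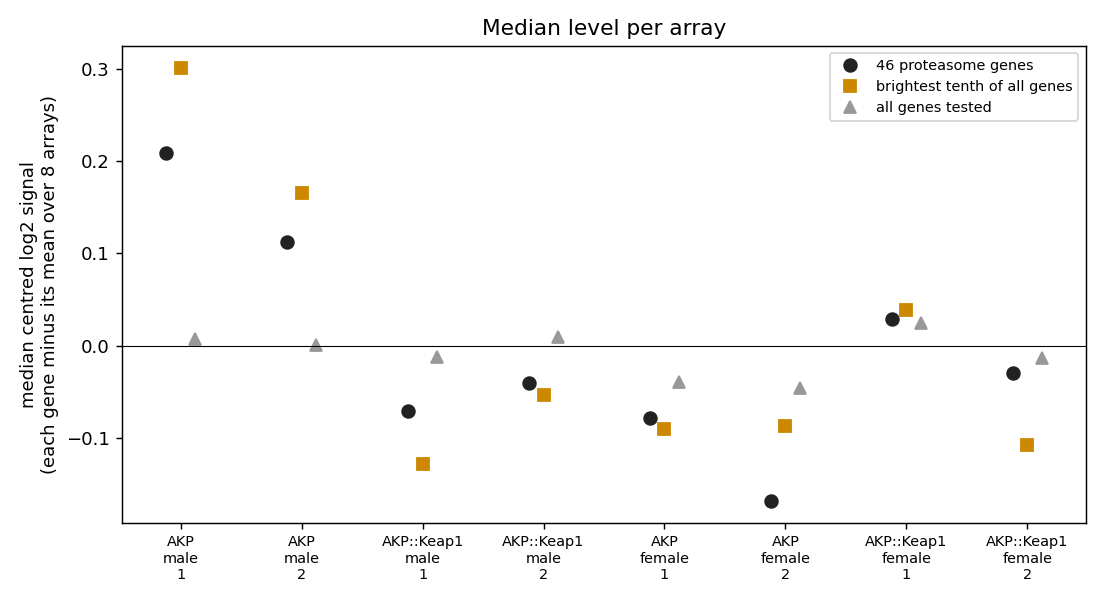
Median centred log2 level (each gene minus its mean over the 8 arrays) per array for the 46 proteasome genes without Psmc3ip, Psme3ip1 and Psma8 (circles), for the 1583 genes with the brightest probes (squares) and for all genes tested (triangles). The 2 AKP males are the highest for proteasome genes (0.21 and 0.11) and for bright genes (0.30 and 0.17), while all genes stay within 0.05 of 0.

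Array by array, the median centred level of the 46 genes stood at 0.21 and 0.11 for the AKP males, against -0.07 and -0.04 for the AKP::Keap1 males. In females it was -0.08 and -0.17 for AKP, against 0.03 and -0.03 for AKP::Keap1. AKP male 1 held the highest value of 27 of the 46 genes, and AKP female 2 the lowest of 17. The bright genes were at 0.30 and 0.17 in AKP males and between -0.13 and 0.04 elsewhere.

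Between the sexes, averaged over genotypes, 1 of 49 members was higher in females, Psme4 (0.57 ± 0.11, adjusted p = 0.020), and 5 were lower: Psma2, Psmb3, Psmc4, Psmd8 and Psmd12. The dimmer Psme4 probe gave 0.17 ± 0.13 (adjusted p = 0.40). The Psme4 call ended with the mean of all probes (0.37, adjusted p = 0.069), with unscaled values (0.37, adjusted p = 0.073), with the slide as a random block (adjusted p = 0.097) and without AKP male 1, AKP::Keap1 male 2 or either AKP female (adjusted p from 0.052 to 0.069). Of all genes 10.9% were higher and 10.3% lower in females, beside 2.04% and 10.2% of the members. Of the called members the lid subunit Psmd8 had the largest difference. It was at 2.83, 2.65, 2.29 and 2.34 in the 4 males and 1.78, 1.78, 2.04 and 1.34 in the 4 females, AKP mice first. The sexes did not overlap, with -0.79 ± 0.16 (adjusted p = 0.024). Psma2 (-0.40 ± 0.09, adjusted p = 0.033), Psmd12 (-0.35 ± 0.09), Psmb3 (-0.35 ± 0.09) and Psmc4 (-0.32 ± 0.08) followed. The dimmer Psmd12 probe gave -0.15 ± 0.09 (adjusted p = 0.27), and its sexes overlapped. With the mean of all probes Psmd12 was not called (-0.25, adjusted p = 0.069). Members whose 4 male values all exceeded the 4 female values numbered 5 of 49: Psma2, Psma5, Psmc2, Psmd8 and Psmd12. Among all genes 6.93% had this order. The reverse order was seen in 0 members and 6.01% of all genes. When 1 array was left out, Psmd8 kept its call for the AKP::Keap1 females alone, Psma2 for 1 of the 8 arrays, and Psmb3, Psmc4 and Psmd12 for 0. All 5 calls ended with the slide as a random block (adjusted p from 0.091 to 0.30). The median of all members was -0.13, and so was that of the bright genes.

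Among factors known to control proteasome genes, the relative of Nrf2 fell. Nfe2l1, the factor that raises proteasome genes when the particle is inhibited, had -2.51 and -2.52 in the AKP males, levels of -2.76 and -2.82 in the AKP::Keap1 males, -1.25 and -1.14 in the AKP females and -2.77 and -2.57 in the AKP::Keap1 females. The AKP females stood alone above the other 6 mice. Nfe2l1 fell by 0.87 ± 0.09 over both sexes (adjusted p = 0.0016), by 1.47 ± 0.12 in females (adjusted p = 0.0028) and had -0.27 ± 0.12 in males. Its interaction was called (-1.20 ± 0.17, adjusted p = 0.041) and ended on leaving out any array (-1.30 to -1.10, adjusted p up to 0.13). Of the 13 tested genes on the list of control genes, 1 rose and 3 fell, beside 21.8% and 17.2% of all genes tested. The rise was Mafg, the small Maf partner of both factors (0.51 ± 0.10, adjusted p = 0.0092), and the falls were Nfe2l1, Nfe2l2, which encodes Nrf2 (-0.40 ± 0.10, adjusted p = 0.024), and Keap1. The Nfe2l2 call ended after quantile normalization (adjusted p = 0.068), with unscaled values (-0.09, adjusted p = 0.68), with the slide as a random block (adjusted p = 0.071) and without 5 of the 8 arrays. That of Mafg ended with a shift to the array median (0.26, adjusted p = 0.056), the mean of all probes (0.28, adjusted p = 0.064) and the slide as a random block (adjusted p = 0.077). The ubiquitin ligase Syvn1 had an interaction of 1.75 ± 0.29 (adjusted p = 0.048), with -1.29 ± 0.20 in males and 0.46 ± 0.20 in females, a call that also ended on leaving out any array.

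Of 17 tested partners that lie outside the Psm symbols, 0 rose and 5 fell over both sexes, beside 21.8% and 17.2% of all genes. The falls were the ligase Ube3a (-0.62 ± 0.13), the nuclear import factor of proteasomes Akirin2 (-0.53 ± 0.09, adjusted p = 0.0068), the shuttle proteins Ubqln1 (-0.52 ± 0.10) and Ubqln4 (-0.41 ± 0.13), and Txnl1 (-0.28 ± 0.09). Akirin2 was at 1.30 to 1.60 in the 4 AKP mice and 0.84 to 1.03 in the 4 AKP::Keap1 mice, without overlap. Ube3a, Akirin2 and Ubqln1 kept their calls without each array, Ubqln4 kept it for 1 of the 8 left out and Txnl1 for 0. With unscaled values none of the 5 was called (-0.31 to 0.03). Pomp, a chaperone of core maturation, had 0.29 ± 0.10 (adjusted p = 0.067) and rose in females by 0.62 ± 0.15 (adjusted p = 0.032; 4.03 and 3.79 in AKP against 4.65 and 4.42 in AKP::Keap1). The female call ended without each of the 8 arrays (adjusted p from 0.055 to 0.14) and in 3 other settings. Its value in males was -0.03 ± 0.15. Sem1, a small lid subunit with no Psm symbol in this table, fell in males (-0.67 ± 0.15, adjusted p = 0.024), a call that ended with unscaled values (-0.16) and without 3 of the 8 arrays.

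Of 18 genes of ubiquitin supply, 2 rose and 0 fell, both shares below those of all genes. The rises were the deubiquitinases Uchl3 (0.84 ± 0.11, adjusted p = 0.0033) and Usp5 (0.33 ± 0.09, adjusted p = 0.027). Uchl3 kept its call in all 10 other settings and without each array. Usp5 kept it without 1 of the 8 arrays, and lost it after a shift to the array median (0.09, adjusted p = 0.43) and with the slide as a random block (adjusted p = 0.15). Of 22 genes of peptide presentation and interferon gamma, 2 rose, the class II regulator Ciita (0.84 ± 0.12) and the class II chaperone Cd74 (1.12 ± 0.22). The 4 that fell were the class I genes H2-T23 (-0.63 ± 0.10), H2-D1 (-0.42 ± 0.09) and H2-K1 (-0.38 ± 0.08), and the peptide trimmer Erap1 (-0.35 ± 0.09). The share that rose was below that of all genes, and the share that fell was close to it. With unscaled values none of the 4 falls was called (-0.32 to -0.04), after quantile normalization that of H2-K1 was not (-0.15), and Erap1 kept its call without 2 of the 8 arrays. Ciita lost its call under normexp correction (0.33, adjusted p = 0.069). The H2 genes resemble each other in sequence, so that their probes may share signal. Bile duct markers, 8 of 10 of which rose, had mean levels of -3.56 to -2.55 in AKP and -0.59 to 0.17 in AKP::Keap1 livers, and hepatocyte markers, 5 of 10 of which fell, 6.81 to 7.26 and 6.36 to 6.76. The part of these cell types in the proteasome values was not tested.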

How the data were processed

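Total RNA of whole liver (500 ng per sample, per the labels' protocols) was amplified and marked with Cy3. Each deposited file gives spot intensity on a linear scale. Per the file headers it was made with Feature Extraction 10.7.3.1 and an mm9 annotation, while the submitters' processing notes name version 10.1. The background-subtracted intensity was used, and the deposited series matrix held the same values in 344160 of 344160 cases compared (tolerance 1e-04).

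Control spots (1377 of 44397) and outlier spots were left out, log2 signals of spots of one probe were averaged, and each array's 75th percentile was subtracted. Probes were named through their accession in a RefSeq table of assembly GRCm38.p6 (26055 probes with a gene, 13374 without). Probes that reached well above background on 2 or more arrays were kept, and the brightest kept probe stood for its gene. Differences were fitted over 15834 genes with limma 3.58.1 in R 4.3.3, 1 mean per group, and p-values are two-sided and Benjamini-Hochberg adjusted over all genes. The fit was tested on simulated data. Contrasts were genotype over both sexes and in each sex, their interaction, and sex (female minus male).

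The members, gene lists and motifs were chosen with earlier results of these data known. Catalytic, activator, chaperone and tissue-restricted members are always named, with the highest and lowest genotype difference in each other role, members with probes of opposite sign and pattern matches outside the particle. Members called by sex or within a sex, the promoters shown and the motifs beyond the response element were chosen after their values were seen. Promoter sequences come from RefSeq, build GRCm38.p6. The array's number of mice limits the precision. Alternatives tried were quantile normalization, a shift to the array median, unscaled values, normexp correction (offset 50, on median signals), other probe filters, the mean of all probes, other variance models, blocks and each array left out. The fit with the slide as a random block had terms for genotype and sex, without their interaction.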

Additional observations from a re-analysis of the deposited data

Results flagged for a closer look

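The median centred level of the 46 proteasome genes per array was compared between genotypes within each sex. It differed by -0.22 in males and by 0.12 in females, so that the female difference exceeded the male one by 0.34. It stood out because both AKP::Keap1 males were below both AKP males while both AKP::Keap1 females were above both AKP females. The difference was not tested. The 1583 genes with the brightest probes had a median interaction of 0.38, and after quantile normalization the members' median interaction was 0.06. The members' median was 0.64 after a shift to the array median and 0.35 after normexp correction. With unscaled values it was 0.005, beside -0.38 over all genes.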

How the results depend on the processing

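Of the calls by genotype over both sexes, those of Psme4 and Psmd9 kept their direction and their side of the threshold in all 10 other settings and without each array, and those of Psmb5 and Psmc3ip in 9 of 10 settings and without each array. Scaling moved the counts most. Quantile normalization gave 7 members higher and 3 lower by genotype (median 0.0024), 3 lower in males (median 0.0047), medians of 0.072 in females and 0.064 for the interaction, and 3 higher and 1 lower by sex (median -0.013). A shift to the array median gave 25 lower by genotype (median -0.30), 0 higher and 41 lower in males (-0.61), a median of 0.054 in females, 8 higher in the interaction (0.64) and 9 lower by sex (-0.23). Unscaled values gave 12 higher and 2 lower by genotype (0.26), 6 higher and 1 lower in males (0.26), 1 lower in females (0.29), an interaction median of 0.0052, and 0 higher and 12 lower by sex (-0.32). Normexp correction gave 1 higher by genotype and 0 higher and 11 lower in males (-0.18). A model with trend and robust variance gave 4 higher by genotype, 0 higher in males, 2 higher in the interaction and 2 higher by sex. With the slide as a random block (correlation 0.23) there were 1 higher and 2 lower by genotype, and 0 higher and 0 lower by sex. That model had terms for genotype and sex and no interaction, where the main fit had 1 mean per group. Each slide held 1 group, so that a slide effect and an interaction cannot be told apart in it. With no filter on dim probes 1 member was lower in females and 2 by sex, and with the mean of all kept probes 0 were higher by sex. The 4 arrays of one sex alone gave 4 lower in males, and 1 higher and 1 lower in females. Without Psmc3ip, Psme3ip1 and Psma8, a setting chosen after seeing the data, 1 member was higher by genotype and 0 in males. The causes were not tested.

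Leaving out each array in turn gave 2 to 2 members higher and 2 to 5 lower by genotype (medians -0.090 to -0.010), 0 to 1 higher and 1 to 8 lower in males (-0.37 to -0.19), and 1 to 4 higher and 0 to 1 lower in females (0.11 to 0.24). For the interaction it gave 0 to 0 in both directions (medians 0.32 to 0.47), and by sex 0 to 1 higher and 0 to 2 lower (-0.15 to -0.084). Where an array left out leaves 1 mouse in a group, that mouse is assumed to vary like the others. The labels do not say whether mice with equal replicate numbers were paired. Deviations from the group means correlated between -0.156 and 0.123 across genes, and between -0.34 and 0.19 across the members. Such correlations cannot show whether the mice were paired. A replicate block left 1 member lower in females and 1 by sex.

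Some small genotype differences that were not called changed sign. After a shift to the array median these were Psmb10 (-0.23), Psme1 (-0.044), Psme2 (-0.19), Psmg3 (-0.011), Psma5 (-0.19), Psmb4 (-0.20), Psmc5 (-0.036), Psmd1 (-0.087), Psmc1 (-0.23), Psmc2 (-0.21) and Psmc3 (-0.23). With unscaled values they were Psmb6 (0.29), Psmb8 (0.15), Psmb9 (0.31), Psmf1 (0.13), Psmg1 (0.23), Psmg4 (0.13), Psmd5 (0.19), Psmd10 (0.27), Psme3ip1 (0.12), Psmb1 (0.12) and Psmc4 (0.21), and the called values of Psmb7 (0.014), Txnl1 (0.028), Psmc4 in males (0.041) and H2-D1 in males (0.017) also turned positive. Quantile normalization turned Psmb6 (0.046), Psmb9 (0.074) and Psmc4 (0.0024). Normexp correction turned Psmb6 (0.022), Psmb9 (0.13), Psmd10 (0.021) and Psmc3ip in males (-0.11). The mean of all kept probes turned Psmd10 (0.18), Psmc1 (-0.044), Psmc2 (-0.0045) and Psmc3 (-0.039). Over the arrays left out, Psmb6 ran from -0.098 to 0.055, Psmb9 from -0.22 to 0.22, Psmb10 from -0.040 to 0.081, Psme2 from -0.0067 to 0.12, Psmd10 from -0.12 to 0.033, Psma8 from -1.23 to 0.26, Psmc1 from -0.045 to 0.075, Psmc2 from -0.010 to 0.074 and Psmc3 from -0.027 to 0.067.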
